A study of Mus musculus with 75 samples.

Results

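Granulocyte-monocyte progenitors (GMP) from mice with and without Kmt2c were compared across all genes. The comparison rests on 8 libraries of the 75 in the series, 4 from knockout (ko) and 4 from wild-type (wt) GMP, taken by their labels. The ko libraries are labelled Kmt2c f/f; Vav-Cre, so that Cre, driven by the Vav promoter of blood-forming cells, recombines both floxed Kmt2c alleles throughout the blood system. The wt libraries are labelled wild-type with no Cre, and 4 further GMP libraries are labelled Kmt2c f/+; Vav-Cre (het). Cre and the loss of Kmt2c therefore cannot be told apart between ko and wt, whereas het and ko both carry Cre. All mice were 8 weeks old and untreated, and the same 3 genotypes were sequenced with 4 libraries each in 3 other populations of the experiment, pre-granulocyte-monocyte cells (pGM), HPC and HSC. The study asked how conditional knockout of Kmt2c alters gene expression in these populations. No label says that replicates are separate animals, so p-values measure the spread between these libraries, which may be technical.

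Kmt2c (MLL3) is a histone H3 lysine 4 methyltransferase that deposits monomethylation at enhancers as part of a large complex with shared and distinct subunits. GMP are bone marrow progenitors committed to neutrophils and monocytes, with small numbers of cells on the way to eosinophils and basophils in the same gate. On entry to the GMP stage, cells switch on granule proteins such as myeloperoxidase and switch off factors of stem cells such as Meis1 and the HoxA genes.

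The 12 GMP libraries held 13.3 to 20.8 M reads (mega-reads) on genes (15.1 to 16.5 M in wt, 13.3 to 20.8 M in ko). Levels are given as normalised CPM, read counts relative to library size after TMM scaling, without correction for gene length, so they compare libraries and not genes. The levels of markers, Xist and Y-linked transcripts in this paragraph are CPM without TMM scaling. The same holds for summed markers, Ly6g and Il5ra below. All 14 GMP markers were present in every library, from 13.3 CPM or more for Gfi1 to 31800 CPM or more for Mpo, and Ly6a (Sca-1), which the GMP gate leaves out, lay at 1.78 to 5 CPM. The 3 markers of stroma and endothelium (Col1a1, Cdh5, Cxcl12) stayed under 1 CPM in all 12. Of other cell types single markers did so (Cd3e, Siglech, Ly6g, Ppbp), while others of the same lists were present, such as Nkg7 (1830 to 3320 CPM), F13a1 (245 to 1360), Ngp (3.31 to 164) and Itga2b (8.31 to 25.1). Libraries wt 4, het 4 and ko 4 shared the highest summed erythroid markers (71.2, 63.2 and 77.4 CPM, the other 9 at 3.49 to 25.6) and the highest Ltf, a late neutrophil granule gene (42.8, 31.3 and 35.6 CPM, the others up to 8.29); the part of these cells in the results was not tested. Library ko 2, with het 1, stood apart: mitochondrial transcripts took 2.30% and ribosomal protein transcripts 7.12% of the reads of ko 2 (1.53% and 6.29% in het 1), against 0.324 to 1.1% and 3.94 to 5.01% in the other 10. Libraries ko 1 and ko 4 held Xist (52.1 and 35.6 CPM) and almost no Y-linked transcripts (0.241 and 0.625 CPM), wt 2 and wt 3 held both (Xist 11.1 and 9.21 CPM), and the others held Y-linked transcripts with Xist under 1 CPM. Sex-linked transcripts were thus not balanced between ko and wt, and their part in the results was not tested beyond the fits given below.

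Kmt2c itself checked the labels. Its level was 16.6, 14.4, 11.6 and 20.1 CPM in wt 1 to 4, 9.07, 10.5, 9.76 and 11.1 CPM in het 1 to 4, and 5.75, 8.27, 2.38 and 5.57 CPM in ko 1 to 4. Every ko library lay below every het library and every het library below every wt library. The fitted log2 change of ko against wt was -1.52 ± 0.29 (SE; edgeR quasi-likelihood test, Benjamini-Hochberg adjusted p = 0.0309). Counts over the whole gene (chromosome 5, 25271798 to 25498783 in GRCm38, minus strand) include exons outside any floxed segment, so the remaining reads do not measure residual protein. The call was lost in 7 of 12 fits that left out 1 library, with adjusted p up to 0.118 (without wt 1), while the log2 change stayed between -1.75 and -1.26. Of 22 H3K4 methyltransferases and partners tested, Kmt2c was the 1 member called, where 0.555% of all genes tested were called. Kmt2d, its closest paralog, had a log2 change of -0.26 ± 0.28 (adjusted p = 0.826).

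Across 12082 genes tested, 67 (0.555%) passed an adjusted p of 0.05, 24 higher (0.199%) and 43 lower (0.356%) in ko. At an unadjusted p under 0.05 there were 1126. All 67 had ko and wt libraries that did not overlap, as did 857 genes (7.09%) in all, 399 higher (3.3%) and 458 lower (3.79%). The median log2 change over all genes was 0.03, with 54.4% above 0. Without ko 2 the test called 66 genes (27 higher, 39 lower), 51 of them among the 67. Leaving out ko 1 and ko 4 together left 2 higher and 9 lower, and adjusting for Y-linked expression left 2 higher and 10 lower, 8 and 10 of them among the 67; all 67 kept their sign in both. Leaving out 1 library in turn, 13 of the 67 stayed called each time: Gpr141, Tuba8, Cd180, Il18rap, Sva, Tgfbi, Plek, Clec5a, Serpine2, Tmem273, Serpinf1, Ptgir and Sema4a. The other 54 lost the call in at least 1 such fit. The counts (higher and lower) were 6 and 15 without ko 1, 12 and 27 without ko 3, 8 and 17 without ko 4, 4 and 13 without wt 1, 2 and 14 without wt 2, 7 and 23 without wt 3, 6 and 16 without wt 4, 44 and 53 without het 1, 15 and 25 without het 2, and 15 and 28 without het 4.

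**Figure D1:**
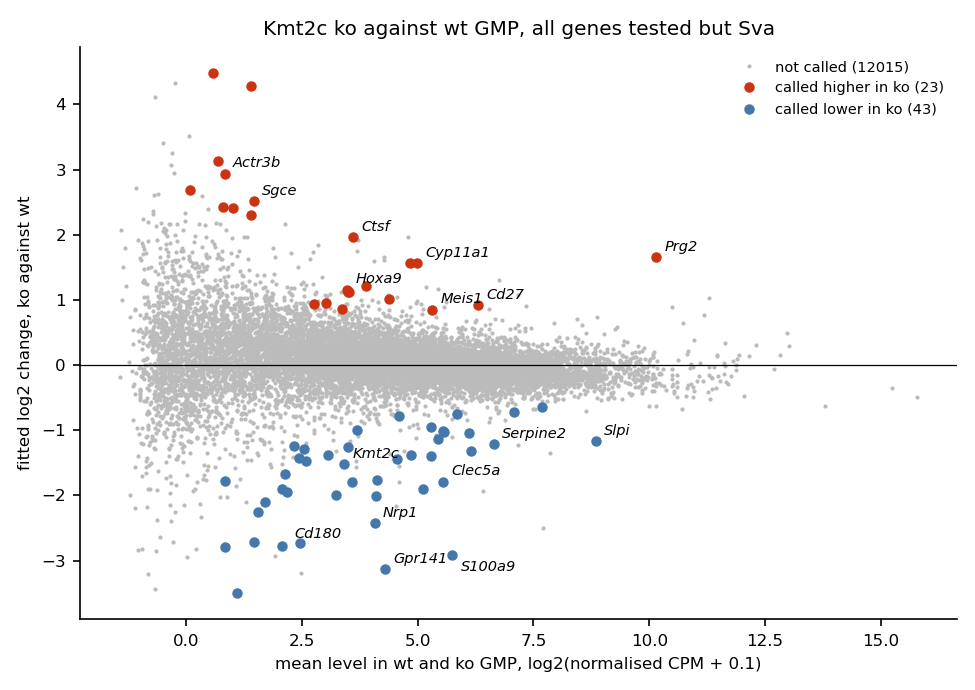
Fitted log2 change of ko against wt GMP (vertical axis) plotted against mean level in wt and ko as log2(normalised CPM + 0.1), for every gene tested but Sva, whose wt libraries all held 0 reads. Grey points were not called, red were called higher and blue called lower. Prg2 and Slpi are the called genes at the highest levels, and many of the called higher genes lie below 5 CPM.

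Gpr141, an orphan G protein-coupled receptor, fell from 28.6, 32.7, 38.0 and 41.4 CPM in wt to 2.23, 5.64, 4.21 and 4.11 CPM in ko, a log2 change of -3.13 ± 0.26 (8.73-fold, adjusted p = 2.79e-05). The groups were far apart, and het lay between, at 14.7 to 22.9 CPM. Cd180, a Toll-like receptor homologue that pairs with MD-1, fell from 6.69, 7.40, 8.5 and 6.19 to 1.73, 0.875, 0.720 and 0.840 CPM (log2 change -2.78 ± 0.34, adjusted p = 0.00186). Il18rap, the accessory chain of the interleukin-18 receptor, fell from 8.96, 10.2, 8.84 and 9.56 to 1.28, 2.62, 1.22 and 0.707 CPM (log2 change -2.73 ± 0.35, adjusted p = 0.00271). Groups of both genes were separate, and the wt libraries were close together. Clec5a, a C-type lectin that signals through the adaptor DAP12, fell from 60.6, 76.2, 69.2 and 82.1 to 9.94, 25.7, 23.6 and 24.3 CPM (log2 change -1.79 ± 0.25, adjusted p = 0.00469). Tuba8, an alpha-tubulin isotype, fell from 55.0, 63.8, 48.5 and 49.8 to 11.9, 21.1, 13.6 and 12 CPM (log2 change -1.89 ± 0.20, adjusted p = 0.000514). These 5 genes were called in 20 to 22 of 22 alternative fits, and with Y-linked expression as a covariate their log2 changes were -2.86, -3.18, -2.36, -1.55 and -1.69 in the order given (adjusted p = 0.0698 for Clec5a, which was then not called).

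Promoters are shown for 2 genes that fell and, for comparison, 2 that rose (RefSeq sequences, GRCm38.p6, the 250 bases before the annotated start, 5′ to 3′ on the gene's strand). Capitals mark GAGGAAG, a core of the sites that the myeloid factor PU.1 binds, on either strand; TTGCNNAA, a C/EBP core, was searched as well and was not found in any of the 4. The 4 windows are chr13:19824258-19824507 (Gpr141, minus strand), chr1:40515112-40515361 (Il18rap, plus strand), chr19:4854915-4855164 (Ctsf, plus strand) and chr6:52227371-52227620 (Hoxa9, minus strand).
Gpr141: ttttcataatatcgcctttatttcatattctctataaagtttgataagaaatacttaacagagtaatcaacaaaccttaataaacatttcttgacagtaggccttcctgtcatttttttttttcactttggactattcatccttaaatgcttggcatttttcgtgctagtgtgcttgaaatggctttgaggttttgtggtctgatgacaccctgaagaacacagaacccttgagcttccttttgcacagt
Il18rap: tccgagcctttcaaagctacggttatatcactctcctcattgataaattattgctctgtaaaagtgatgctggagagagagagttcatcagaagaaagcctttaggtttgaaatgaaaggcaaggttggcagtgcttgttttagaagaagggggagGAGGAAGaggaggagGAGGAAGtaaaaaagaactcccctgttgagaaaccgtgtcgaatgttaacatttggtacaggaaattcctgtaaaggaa
Ctsf: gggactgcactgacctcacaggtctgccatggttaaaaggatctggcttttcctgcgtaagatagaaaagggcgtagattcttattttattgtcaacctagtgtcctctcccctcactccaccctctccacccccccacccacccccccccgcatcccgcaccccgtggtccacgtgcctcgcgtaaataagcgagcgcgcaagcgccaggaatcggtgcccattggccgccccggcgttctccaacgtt
Hoxa9: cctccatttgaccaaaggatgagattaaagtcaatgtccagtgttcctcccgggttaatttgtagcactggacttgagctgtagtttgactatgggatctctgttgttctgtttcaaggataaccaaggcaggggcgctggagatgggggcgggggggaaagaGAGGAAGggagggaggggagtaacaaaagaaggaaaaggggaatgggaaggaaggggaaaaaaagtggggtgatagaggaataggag
The letters GAGGAAG stand 2 times in the Il18rap window and 1 time in the Hoxa9 window, and 10.6% of all 32851 promoters in the table hold them in the same length (TTGCNNAA: 9.56%). CpG dinucleotides number 2 for Gpr141, 4 for Il18rap, 17 for Ctsf and 3 for Hoxa9, against a median of 6 over all promoters. The table matched 53 of the 67 called genes and 75.3% of the genes tested, too few for a comparison of promoters between groups of genes, and none was made.

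Genes of the monocyte and dendritic list fell in 4 of 25 tested members and rose in 0, with a list median of -0.23 against 0.03 for all genes, of which 0.356% were called lower. Beside Cd180 these were Tgfbi, a secreted matrix protein induced by TGF-beta (26.9 ± 5.53 CPM in wt, 7.89 ± 2.14 in ko, SD, n = 4 each; log2 change -1.77 ± 0.24, adjusted p = 0.00314), Ccr2, the receptor for the monocyte chemokine CCL2 (108, 69.8, 135 and 94.1 CPM in wt, 27.8, 50.6, 36.9 and 47.2 in ko; -1.32 ± 0.26, adjusted p = 0.0334), and Nrp1, a co-receptor for semaphorins and VEGF (28, 24.0, 25.3 and 35.7 CPM in wt, 1.62, 3.02, 7.75 and 8.48 in ko; -2.42 ± 0.49, adjusted p = 0.0374). Tgfbi kept its call without any 1 library. Nrp1 lost it in 11 of 12 such fits and Ccr2 in 8, with adjusted p up to 0.161 (Nrp1, without ko 2) and 0.126 (Ccr2, without wt 1). With Y-linked expression as a covariate, Ccr2 and Nrp1 were not called (edgeR, adjusted p = 0.181 and 0.199), and the list median was -0.29. Without ko 1 and ko 4 together, 1 member was called, Cd180, with a median of -0.28. By library, the list median of log2(normalised CPM + 1) minus the wt mean was -0.89, -0.49, -0.07 and 0.04 in ko 1 to 4. The wt libraries lay at -0.03 to 0.03. Csf1r, the receptor that drives monocyte growth, had overlapping levels of 164 ± 39 CPM in wt and 146 ± 78 in ko (log2 change -0.17, adjusted p = 0.909), and Irf8, the monocyte and dendritic factor, 256 ± 32 and 289 ± 140 (0.17, adjusted p = 0.872). The summed level of 5 monocyte and dendritic markers was 789 to 1300 CPM in wt and 385 to 1690 CPM in ko. In bulk samples, fewer cells of a type and less RNA per cell cannot be told apart.

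Further genes were called lower. Plek (pleckstrin, a protein kinase C substrate of platelets and leukocytes) stood at 28.8, 35.1, 36.0 and 37.4 CPM in wt and at 16.0, 11.4, 13.6 and 9.41 in ko (log2 change -1.45 ± 0.20, adjusted p = 0.00377), and was called in all 22 alternatives. Itgb3, the beta-3 integrin, was called lower as well (-1.90 ± 0.37, adjusted p = 0.0328), with the call lost in 9 of 12 fits without 1 library (edgeR, adjusted p up to 0.141 without wt 2). Sema4a, a class 4 semaphorin, stood at 50.5, 79.3, 44.3 and 51.8 CPM in wt and at 18.2, 21.1, 24.9 and 22.0 in ko (-1.39 ± 0.21, adjusted p = 0.00855). Sema4a and Nrp1 were the 2 called of 10 neuropilins, plexins and semaphorins tested, both lower, against 0.356% of all genes called lower. Of the 2, Nrp1 lost its call in 11 of 12 fits without 1 library, as given above. Among protease inhibitors, Serpine2 (protease nexin-1) stood at 119, 165, 136 and 139 CPM in wt and at 66.2, 44.0, 64.4 and 66.9 in ko (-1.21 ± 0.17, adjusted p = 0.00563). Serpinf1 fell too (-1.04 ± 0.15, adjusted p = 0.00622). Slpi, an inhibitor of neutrophil elastase, stood at 800, 572, 629 and 543 CPM in wt and at 180, 299, 327 and 326 in ko (-1.17 ± 0.22, adjusted p = 0.0283); its call was lost in 7 of 12 fits without 1 library (edgeR, adjusted p up to 0.126 without wt 1). Ptgir, the prostacyclin receptor, fell by 2.00 on the log2 scale (SE 0.30, adjusted p = 0.0076).

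**Figure D2:**
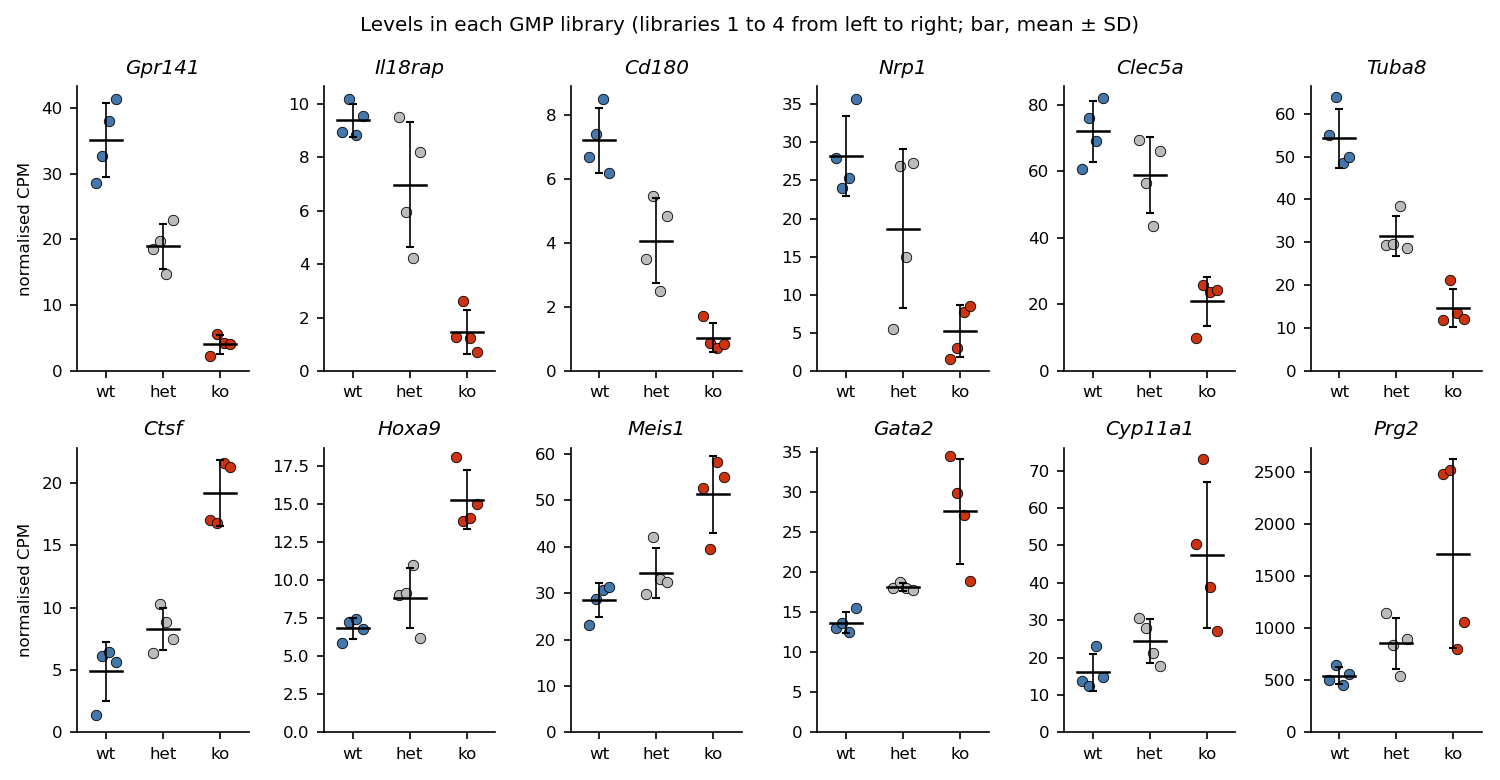
Normalised CPM (vertical axes, each from 0) of 12 called genes in every GMP library; points are libraries 1 to 4 of wt (blue), het (grey) and ko (red) from left to right, and bars the mean ± SD of 4. The upper 6 fell and the lower 6 rose, with no overlap of ko and wt in any of the 12; Prg2 is 2480 and 2510 CPM in ko 1 and ko 2 and 804 and 1060 CPM in ko 3 and ko 4.

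Late neutrophil and primary granule genes held 1 call, S100a9, lower in ko, where 0.356% of all genes were called lower. The late granule genes Camp, Ngp and Ltf overlapped between ko and wt. S100a9, a calcium-binding protein of neutrophils, was the 1 called of 20 late neutrophil genes tested (139, 136, 32.6 and 70.2 CPM in wt; 5.42, 15.3, 6.92 and 22.7 in ko; log2 change -2.91 ± 0.52, adjusted p = 0.0265). The highest ko library lay close below the lowest wt library, and the call was lost in 6 of 12 fits without 1 library (adjusted p = 0.129 without ko 2). Its partner S100a8 had means of 353 CPM in wt and 62.8 in ko (log2 change -2.49 ± 0.61, adjusted p = 0.140) and Fcnb 136 and 35.6 (-1.93 ± 0.47, adjusted p = 0.103). The list median was -0.36, with 17 of 20 below 0 (45.6% of all genes), and -0.59 with Y-linked expression as a covariate, when S100a9 was not called (adjusted p = 0.141). Summed markers of late neutrophils ranged from 184 to 808 CPM in wt and from 57.2 to 307 in ko, with Ly6g, which defines mature neutrophils, at 0 to 0.865 CPM. Of 12 primary granule genes none was called; Mpo stood at 56200, 74400, 65100 and 67300 CPM in wt and at 51100, 33600, 58800 and 43800 in ko (adjusted p = 0.476), Elane at 43481 ± 3272 and 34074 ± 7568 (SD, n = 4 each; adjusted p = 0.525) and Prtn3 at 6749 ± 299 and 6505 ± 861 (adjusted p = 0.929). The median of that list was -0.21, -0.36 without ko 2 (11 of 12 below 0) and 0.01 with Y-linked expression as a covariate; without ko 2 and het 1 together, 3 members were called lower.

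Of 23 myeloid transcription factors tested, 0 were called in either direction (edgeR), where 0.555% of all genes were called. At that share, 0 calls does not set a list of this size apart from other genes. The list median was 0.09, and -0.08 with Y-linked expression as a covariate. Gata2, described below, is in other lists. Cebpa, needed to form GMP, had 31.8 ± 12.1 CPM in wt and 37.6 ± 7.3 in ko, and Gfi1, which drives neutrophil fate, 19.8 ± 6.9 and 17.7 ± 3.6. Of 24 haematopoietic cytokine receptors none was called either, among them Csf3r (153 ± 38 and 120 ± 26 CPM), Kit (231 ± 85 and 218 ± 67) and Csf2ra (16.2 ± 2.9 and 13.3 ± 3.9).

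Some transcription factors of stem cells rose. Of 28 stem cell genes tested, 4 were called higher and none lower, with a median log2 change of 0.56 and 26 of 28 above 0, against 0.199% called higher, a median of 0.03 and 54.4% above 0 for all genes. Hoxa9 stood at 5.88, 7.22, 7.47 and 6.80 CPM in wt and at 18.1, 13.9, 14.1 and 15 in ko (log2 change 1.16 ± 0.20, adjusted p = 0.022). Its partner Meis1 (23.2, 28.7, 30.7 and 31.3 in wt; 52.6, 39.4, 58.2 and 54.9 in ko; 0.85 ± 0.17, adjusted p = 0.0365) rose with it, and 3 of 10 Hox genes and cofactors tested were called, all higher. Hoxa7 (24.5 and 44.7 CPM on average, adjusted p = 0.052) and Hoxa10 (0.142 and 1.27 CPM, adjusted p = 0.055) had separate groups but were not called. The lists hold 35 stem cell genes and 22 Hox genes and cofactors, of which 28 and 10 passed the count filter. A gene near 0 in wt can pass that filter through its ko libraries alone. How far this raises the medians and shares of these lists, and of the lists below, was not tested. Gata2, the factor of stem cells and of mast cells, stood at 13, 13.6, 12.5 and 15.5 CPM in wt and at 34.4, 29.8, 27.1 and 18.9 in ko (1.01 ± 0.18, adjusted p = 0.0245). Without 1 library, Hoxa9 lost its call in 5 of 12 fits (adjusted p up to 0.0806), Gata2 in 6 (up to 0.0935) and Meis1 in 9 (up to 0.13), each highest without wt 1. With Y-linked expression as a covariate these genes were not called (log2 changes 1.04, 1.04 and 0.78 for Hoxa9, Gata2 and Meis1).

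Of the genes of eosinophils and mast cells, 3 rose. Prg2, the major basic protein of eosinophil granules, stood at 506, 650, 455 and 564 CPM in wt and at 2480, 2510, 804 and 1060 in ko (log2 change 1.66 ± 0.33, adjusted p = 0.0328). Cyp11a1, which cuts the side chain of cholesterol and is a marker of mast cells and basophils, stood at 13.8, 12.3, 23.2 and 14.8 CPM in wt and at 50.5, 73.1, 38.9 and 27.2 in ko (1.56 ± 0.29, adjusted p = 0.0265). With Gata2 these were 3 of 23 in the mast, basophil and eosinophil list (median 0.95, with 16 above 0, against 0.199% called higher, 54.4% above 0 and a median of 0.03 for all genes), and none was lower. With Y-linked expression as a covariate the median was 0.49 and Prg2 was not called (adjusted p = 0.129), while Cyp11a1 was (adjusted p = 0.0471). Summed eosinophil markers ranged from 531 to 813 CPM in wt and from 1020 to 3240 in ko, with Il5ra at 0.0606 to 1.41 CPM in all 12 libraries, and summed mast and basophil markers from 287 to 396 and from 170 to 494. Without TMM scaling, Prg2, Prg3 and Ear1 did not overlap among 7 eosinophil markers, nor did Ms4a2 among 6 of mast cells and basophils. Epx, Cpa3 and Mcpt8 did overlap. Over all genes tested, 3.3% were higher in ko without overlap after TMM scaling. Prg2 lost its call in 8 of 12 fits without 1 library (adjusted p up to 0.13 without wt 1, 0.0772 without ko 2) and Cyp11a1 in 4 (up to 0.11 without wt 1).

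Other genes that rose had varied roles. Ctsf (cathepsin F, a lysosomal cysteine protease) stood at 1.4, 6.09, 6.44 and 5.64 CPM in wt and at 17.0, 16.8, 21.6 and 21.3 in ko, the largest rise among called genes with a mean of 5 CPM or more in either group (log2 change 1.97 ± 0.34, adjusted p = 0.0186). It was the 1 called of 13 cathepsins. Maged1, a MAGE family adaptor on the X chromosome, stood at 9.03, 16.7, 16.5 and 15.3 CPM in wt and at 49.6, 21.5, 57.0 and 41.3 in ko (1.56 ± 0.28, adjusted p = 0.0235); without ko 2 its log2 change was 1.80. Cd27, a TNF receptor family member of early progenitors and lymphocytes, rose by 0.92 ± 0.17 (adjusted p = 0.0265), and Epsti1, an interferon-induced gene, by 1.22 ± 0.24 (adjusted p = 0.0334). Epsti1 was the 1 called of 26 interferon-stimulated genes, of which 23 lay above 0 (median 0.43), against 0.199% called higher and 54.4% above 0 for all genes. With Y-linked expression as a covariate that median was 0.25 and Epsti1 was not called (adjusted p = 0.192). Calls were lost without single libraries for Ctsf in 3 of 12 fits (adjusted p up to 0.0523 without ko 4), Cd27 in 6, Maged1 in 7 and Epsti1 in 8 (up to 0.128 without wt 1).

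Of the 67 called genes, 15 had means under 5 CPM in both groups, 10 higher and 5 lower. Sgce, which encodes epsilon-sarcoglycan, held 11, 15, 20 and 2 reads in wt and 113, 48, 84 and 75 in ko. Spats2 held 0, 4, 2 and 1 reads in wt and 89, 7, 57 and 45 in ko, and Slc6a15, an amino acid transporter, 9, 3, 0 and 3 against 132, 59, 73 and 78. Actr3b, a subunit of the Arp2/3 actin nucleator, held 3, 3, 7 and 11 reads in wt and 24, 30, 52 and 122 in ko (log2 change 2.94 ± 0.53, adjusted p = 0.0235). It lies 261 kb from Kmt2c on chromosome 5 (25759997 to 25850688). Sva held 0 reads in each wt library, 20 to 27 in het and 20 to 40 in ko, so that it was at least 35.2-fold higher in ko and at least 30-fold higher in het, against a floor of 3 reads over the 4 wt libraries. The log2 change of ko against het was 0.25 ± 0.45 (adjusted p = 0.998), and het and ko share the Vav-Cre label. In the other populations Sva had 0 to 3 reads in each wt library and 15 to 54 in each het or ko library of HSC, HPC and pGM. Tcaf1, 625 kb from Sva on chromosome 6, rose from 9, 21, 8 and 15 reads to 78, 36, 84 and 114. Clec5a, called lower and described above, lies 1450 kb from Sva. In all, 10 called genes lie on chromosome 6 among 601 tested there (1.66%, against 0.555% of all genes).

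**Figure D3:**
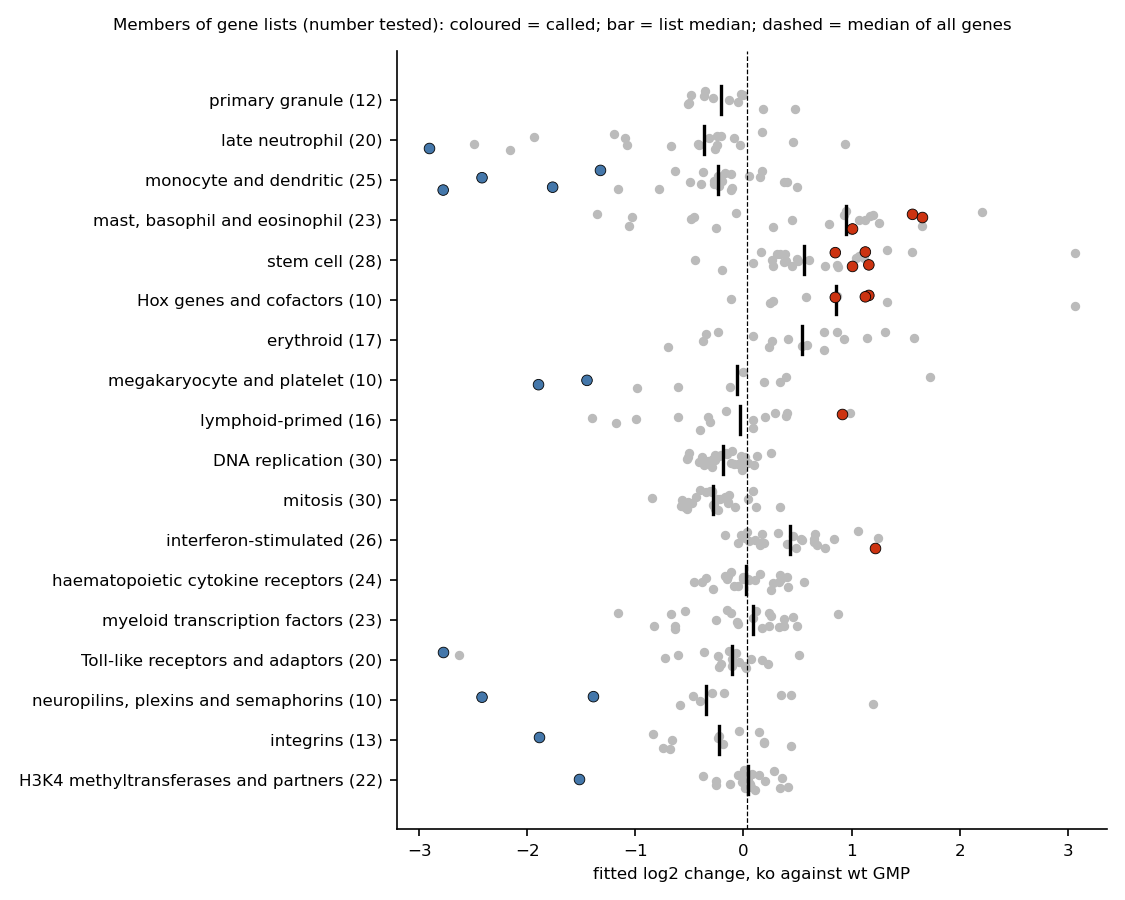
Fitted log2 change of ko against wt GMP (horizontal axis) for the tested members of 18 gene lists; grey points were not called, red were called higher and blue lower, the bar is the list's median and the dashed line the median of all genes. Stem cell and Hox genes, and eosinophil and mast cell genes, carry called points to the right, and monocyte, late neutrophil and semaphorin genes to the left.

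Cell cycle genes lay mostly below 0 without single calls. Of 30 mitosis genes 26 lay below 0, with a median of -0.29, and of 30 DNA replication genes 25, with a median of -0.19, against 45.6% of all genes. No member of either list was called (edgeR), where 0.555% of all genes were. Aurka, a mitotic kinase, stood at 123, 123, 129 and 113 CPM in wt and at 100, 72.1, 72.2 and 84.4 in ko (log2 change -0.57 ± 0.16, adjusted p = 0.171), and Plk1 at 152 and 84.6 CPM on average (-0.84 ± 0.28, adjusted p = 0.277). The mitosis median was -0.17 without ko 2, so that library moved it by more than 1.5 times, and -0.54 with Y-linked expression as a covariate, where the DNA replication median was -0.33.

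The called genes were then set against the order of the populations, with levels read in het libraries, which are not part of the ko against wt contrast. Of the 24 genes called higher, 12 (50%) were at least 2-fold higher in het pGM than in het GMP, where 9.61% of all tested genes were. The count filter also keeps genes that reach the minimum count in ko libraries alone. Such genes are low in wt GMP and could hardly be called lower, and 10 of the 24 had means under 5 CPM. The share of 50% is thus partly set by the filter, and how far was not tested. Of the 43 genes called lower, 22 (51.2%) were at least 2-fold higher in het GMP than in het pGM, where 6.89% of all were. A gene must be expressed in wt GMP to be called lower, and 5 of these 43 had means under 5 CPM. All genes tested include those near the floor, and how far level sets this share was not tested either. The set of 200 genes with the largest rise from het pGM to het GMP held 12 genes called lower and 1 called higher in ko GMP (Prg2). Among all genes tested, 0.356% were called lower and 0.199% higher. The set took only genes with a mean of at least 5 CPM in het GMP, a level that all genes tested need not reach. The median log2 change of the set was -0.22, with 149 of 200 below 0, against 0.03 and 45.6% for all genes. The lower genes were Gpr141, Clec5a, Serpine2, Sema4a, Mrgpra2b, AB124611, Dram1, Slpi, Slc36a2, Mgl2, Gpr84 and Gm9733. Of the 200 genes that fall most from het pGM to het GMP, 170 were tested, with a median of 0.34. Of these, 3 were called higher (Gata2, Meis1, Sdc1) and 2 lower (Plek, Cd96), against 0.199% and 0.356% of all genes. The count filter acts on this set too, since genes near 0 in wt enter through ko. The median of the first set was -0.27 without ko 2, -0.17 with Y-linked expression as a covariate and -0.16 without ko 1 and ko 4; that of the second was 0.30, 0.17 and 0.13.

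**Figure D4:**
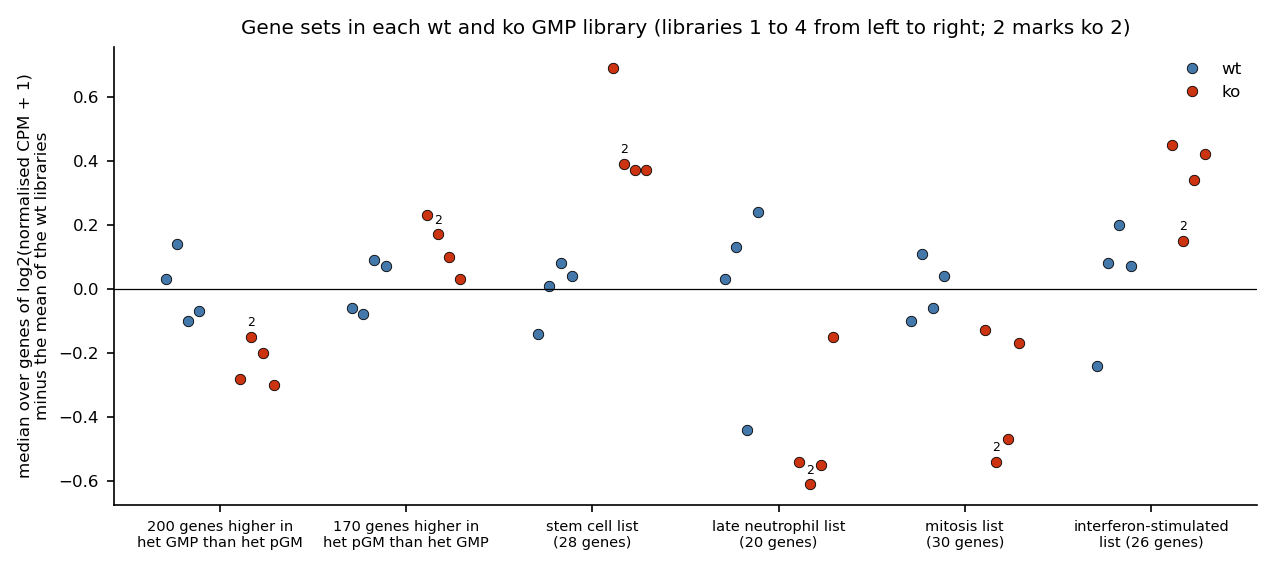
Median over the genes of a set of log2(normalised CPM + 1) minus the mean of the 4 wt libraries (vertical axis), for each wt (blue) and ko (red) GMP library and 6 sets; the wt points centre near 0 by construction. All 4 ko libraries lie between -0.30 and -0.15 for genes that rise into GMP and between 0.37 and 0.69 for the stem cell list, while ko and wt overlap for late neutrophil, interferon-stimulated and pGM genes.

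Mean levels in het lay between those of wt and ko for the 12 genes plotted by library above, and for Sva the het and ko libraries overlapped. In het against wt, Cre and the loss of 1 allele cannot be told apart. Ko against het called 2 genes (0.0166%): Gpr141 (log2 change -2.24 ± 0.25, adjusted p = 0.00197) and Il18rap (-2.30 ± 0.35, adjusted p = 0.0485). Het against wt called 1 (0.00828%), Sva. For Gpr141 the change of het against wt was -0.89 ± 0.23 (adjusted p = 0.973), for Ctsf 0.76 ± 0.33 beside 1.21 ± 0.32 for ko against het (adjusted p = 0.454), and for Hoxa9 0.37 ± 0.20 beside 0.79 ± 0.20 (adjusted p = 0.42). These comparisons share the ko or the wt libraries with ko against wt, so their values are only set side by side. Ko against het, where both groups carry Cre, called 1 gene without ko 3 and 6 without ko 2.

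These 67 genes were followed in pGM, HPC and HSC, measured in other libraries than those of GMP. No label says whether the populations came from the same animals, and ko and wt differ in Cre in all of them. Calls shared between populations are thus not independent replication. The 67 also include Kmt2c itself, and Sva, whose het and ko libraries overlapped. In pGM, 65 of the 67 were tested, 60 had the sign they had in GMP, and 23 (35.4%) were called the same way, where 1.94% of all genes were called. In HPC the numbers were 61 tested, 46 of the same sign and 13 called (21.3%, against 1.1%), and in HSC 61, 49 and 15 (24.6%, against 1.78%). None was called in the opposite direction in any. Genes called lower in GMP were called lower in pGM in 19 of 41 cases (46.3%, against 1.53% lower among all), and genes called higher were called higher in 4 of 24 (16.7%, against 0.41%): Sva, Spats2, Actr3b and Maged1. In HPC these were 9 of 37 lower (24.3%, against 0.851%) and 4 of 24 higher (16.7%, against 0.249%), and in HSC 12 of 37 lower (32.4%, against 1.21%) and 3 of 24 higher (12.5%, against 0.572%). Those called in all 4 populations were Sva (higher) and Kmt2c, Cd96, Gpr65, Tmem273 and Tspan2 (lower). Cd96, an immunoglobulin family receptor, fell from 30.9 ± 1.1 to 3.88 ± 2.30 CPM in HSC, from 52.5 ± 11.2 to 8.08 ± 1.3 in HPC, from 34.3 ± 4.7 to 4.40 ± 1.43 in pGM and from 3.70 ± 0.88 to 0.531 ± 0.268 in GMP (levels scaled over 48 libraries, here and below). In GMP alone its call was lost without any 1 of the 8 ko and wt libraries (adjusted p up to 0.108).

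**Figure D5:**
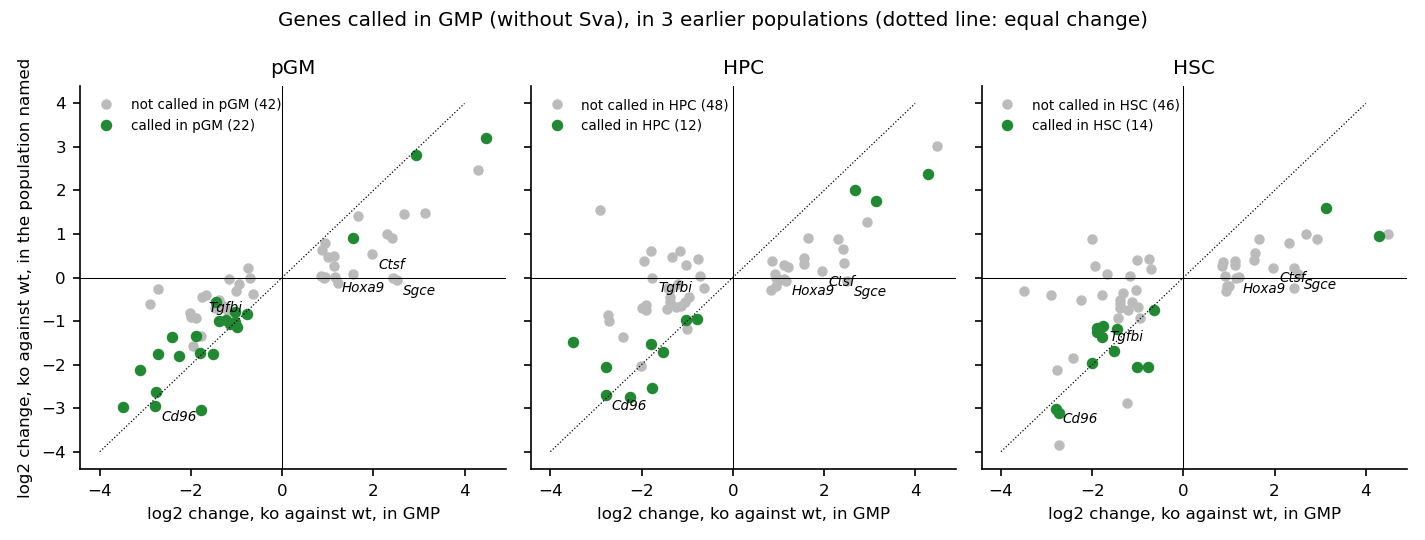
Log2 change of ko against wt in pGM, HPC and HSC (vertical axes) against that in GMP (horizontal axes) for genes called in GMP, without Sva; green points were called in the population named and the dotted line marks equal change. Genes that fell in GMP lie mostly below 0 in the other populations, while Hoxa9 and Sgce rose in GMP and lie near 0 elsewhere, and Ctsf was not called elsewhere.

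A test of the difference between populations separated some of these genes. Hoxa9 fell along the wt populations from 36.6 ± 4.7 CPM in HSC and 46.8 ± 2.6 in HPC to 20.7 ± 4.1 in pGM and 8.63 ± 0.96 in GMP, and in ko from 36.4 ± 4.8, 44.9 ± 3.0 and 20.6 ± 0.9 to 19.2 ± 2.4 in GMP (SD, n = 4 each). The ko level in GMP thus lay near that of pGM. Its ko against wt change in GMP exceeded that in pGM by 1.16 ± 0.23 on the log2 scale (adjusted p = 0.0177), that in HPC by 1.21 ± 0.23 (adjusted p = 0.00592) and that in HSC by 1.16 ± 0.23 (adjusted p = 0.00931). Sgce showed the same order, from 19.3 ± 1.5 CPM in wt and 18.5 ± 2.9 in ko pGM to 0.995 ± 0.652 in wt and 5.66 ± 1.61 in ko GMP (difference from pGM 2.58 ± 0.42, adjusted p = 0.00132). Hoxa10, not called in GMP alone, went from 6.73 ± 1.12 and 8.5 ± 1.21 CPM in pGM to 0.180 ± 0.210 and 1.59 ± 0.66 in GMP (2.71 ± 0.49, adjusted p = 0.0058). Epsti1 went from 48.5 ± 6.7 and 44.2 ± 4.5 CPM in pGM to 11.2 ± 2.1 and 25.8 ± 7.8 in GMP (1.34 ± 0.25, adjusted p = 0.00627). Mean levels of all 4 genes were lower in GMP than in pGM in both genotypes, by less in ko. For Hoxa9 in ko the gap lay within the SD (20.6 ± 0.9 and 19.2 ± 2.4 CPM). GMP was not tested against pGM within ko.

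In all, 14 genes (0.0927% of 15110) differed between GMP and pGM, each with the higher change in GMP: beside these 4, Lck, Rtp4, Serpini1, Dkkl1, Serpina3g, Rnf122, Tnfsf10, Hs3st1, Cd59a and Itm2a. For some of them the change lay in pGM: Lck, a kinase of lymphocytes, went from 65.5 ± 8.2 to 24.6 ± 6.7 CPM in ko pGM and from 4.85 ± 1.21 to 6.84 ± 1.52 in GMP. Against HPC 31 genes differed (0.205%), and against HSC 59 (0.39%). Ctsf differed from both (HPC 1.81 ± 0.37, adjusted p = 0.0122; HSC 1.72 ± 0.37, adjusted p = 0.0175); it rose from 6.19 ± 2.99 to 24.1 ± 3.6 CPM in GMP and had 75.1 ± 8.8 and 88.5 ± 3.0 in wt and ko HSC. Tgfbi fell in GMP from 34.0 ± 7.5 to 9.91 ± 2.81 CPM and stood at 33.0 ± 8.4 and 33.1 ± 3.7 in HPC (difference -1.78 ± 0.36, adjusted p = 0.0117). Sgce, Hoxa10 and Epsti1 kept each of these differences in all 20 alternatives run, and Hoxa9 kept those from HPC and HSC but lost that from pGM in 4 (adjusted p up to 0.0725). The count of genes that differed from pGM was 8 without GMP ko 1, 25 without GMP ko 3, 26 without GMP ko 4 and 8 without pGM ko 4, and from HSC 38 without HSC ko 1 and 34 without HSC wt 4.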

How the data were processed

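Bulk RNA was measured in sorted cells; RNA was taken with the Qiagen RNAeasy micro plus kit and libraries made with Clontech SMRTr, per the labels' protocols. The deposited values are raw counts of reads per gene. The submitters' processing notes name STAR 3.0.4, Subread and featureCounts 1.4.5; the sources used here give neither genome build nor strand setting. Without the latter, reads of antisense and overlapping genes cannot be told apart. Symbols and coordinates come from GENCODE M21 (GRCm38), and 0.134 to 0.168% of the reads were on genes it does not list. Counts of the 12 GMP libraries were filtered (edgeR filterByExpr, minimum count 10, total 15), scaled by TMM and fitted with edgeR 4.0.16 by the quasi-likelihood test, without a replicate block; p-values were adjusted over all genes and called under 0.05. Differences between populations were interactions in 1 fit of all 48 libraries of the 4 untreated populations. The SE given with a log2 change was worked back from the test, as the size of the change divided by the square root of F. DESeq2 1.42.0 and limma 3.58.1 were alternatives. Scripts were tested on simulated data.

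Genes named were Kmt2c, the 12 largest changes in each direction among called protein-coding genes of 5 CPM or more whose groups do not overlap, up to 4 called members of each list (2 uncalled where none was called) and a fixed panel. Clec5a, Serpine2, Serpinf1, Slpi, S100a8, Fcnb, Hoxa7, Hoxa10, Kmt2d, Plk1, Cd96 and the genes under 5 CPM were chosen after their values were seen. Members and lists were chosen with earlier results of these data known. Some called genes are counted but not reported by name here.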

Additional observations from a re-analysis of the deposited data

Results flagged for a closer look

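Single libraries stood apart from the other 3 of their group in 17 of 264 groups looked at (6.44%), where chance gives about 1 in 20. Among genes that fell, these were Tuba8 in het 3 (38.5 CPM, the others 28.7 to 29.5), Cd180 in ko 1 (1.73, the others 0.72 to 0.875), Clec5a in ko 1 (9.94, the others 23.6 to 25.7), Serpine2 in ko 2 (44.0, the others 64.4 to 66.9) and Slpi in het 4 (724, the others 408 to 456). Others were Cd96 in het 2 (3.68 CPM), 2310075C17Rik in het 4 (1.61), Tmem50b in ko 3 (127) and Gdf3 in ko 4 (10.2). Ctsf was low in wt 1 (1.4 CPM, the others 5.64 to 6.44). Among markers of GMP, Mpo was low in het 1 (33000 CPM, the others 58000 to 59600), as was Csf3r (87.4), while Fcgr3 was high in het 1 (932) and ko 2 (793) and Gfi1 in wt 1 (30). Mitochondrial transcripts were low in wt 4 (0.482%, the others 0.725 to 0.74%), and ribosomal protein transcripts high in ko 2 (7.12%, the others 4.5 to 4.61%).

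The ko against wt change of several called genes differed between GMP and another population by the interaction test (edgeR). Against pGM, the change in GMP was higher by 2.58 for Sgce, 1.16 for Hoxa9 and 1.34 for Epsti1 on the log2 scale. Against HPC it was higher by 2.60 for Sgce, 1.21 for Hoxa9 and 1.81 for Ctsf, and the difference for Tgfbi was -1.78. Against HSC it was higher by 2.43 for Sgce, 1.16 for Hoxa9, 1.19 for Gata2, 2.19 for Zfp827, 1.19 for Epsti1, 2.66 for Sdc1, 1.72 for Ctsf and 1.26 for Tspan2, and the difference for Ptgir was -2.90. Those of Tspan2, Gata2 and Ptgir from HSC were lost in 9 of 20 alternatives each and that of Zfp827 in 12.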

How the results depend on the processing

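All 67 called genes kept their sign in each alternative that tested them (66 with ko and wt alone in the fit). Genes called higher and lower numbered 127 and 108 with DESeq2, 112 and 117 with limma voom, 134 and 63 with all 48 libraries in 1 fit, 2 and 10 with Y-linked expression as a covariate, 2 and 9 without ko 1 and ko 4, and 87 and 107 without ko 2 and het 1. Without 1 library they ranged from 2 to 44 and from 13 to 53. Ko against het called 1 gene with RLE size factors, 38 with DESeq2, 10 with limma voom, 9 without the filter, 26 with 48 libraries, 0 with the Y-linked covariate, 0 without ko 1 and ko 4, 8 without ko 2 and het 1, and 1 to 6 without 1 library. Het against wt called 5 with 48 libraries, 0 without ko 1 and ko 4, and 0 to 1 without 1 library. DESeq2 called 59, 82 and 143 differences from pGM, HPC and HSC, and leaving out 1 library gave 8 to 26, 21 to 39 and 34 to 75. Causes were not tested.

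Replicate numbers were not taken to pair the samples, since no label says that a number marks a shared animal or day. Residuals of same-numbered ko and wt libraries correlated at 0.089, -0.10, 0.056 and 0.25 for numbers 1 to 4. For number 4, ko with het gave 0.25 and het with wt 0.16. In all, 2 of 4 ko and 2 of 4 wt libraries correlated best with their own number. With the replicate block 14 genes were called higher and 29 lower, 37 of them among the 67, 1 for ko against het and 0 for het against wt.

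Some uncalled changes near 0 reversed. Without ko 1 and ko 4, Kdm5d was 0.237 and Uty 0.155. With Y-linked expression as a covariate and without ko 1 and ko 4, the log2 changes were -0.0114 and -0.0365 for Irf8, -0.0144 and -0.0217 for Cd34, 0.0906 and 0.104 for Fcgr3, 0.0465 and 0.0651 for Prtn3, and 0.193 and 0.221 for Ctsg. That of Gfi1 was 0.0482 with limma voom. Without ko 2 and het 1, Csf1r was 0.0705 and Kit 0.0867. Without 1 library the ranges were -0.263 to 0.139 for Gfi1, -0.203 to 0.357 for Irf8, -0.0263 to 0.198 for Cd34, -0.491 to 0.0916 for Csf1r, -0.281 to 0.108 for Kit and -0.273 to 0.101 for Ctsg.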
